A study of Mus musculus with 30 samples.

Results

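The genes described here are 32 lysosomal hydrolases other than the cathepsins, measured by RNA sequencing in brains of mice with and without Tmem106b. They were taken by name from a deposited table of 34871 genes, of which 23695 had a mean above 0 over all 30 mice, and all 32 hydrolases were among those. Lysosomes are acidic compartments in which soluble hydrolases take apart sphingolipids, glycosaminoglycans, glycoproteins, glycogen, other lipids, peptides and nucleic acids. Most of these enzymes are tagged with mannose 6-phosphate in the Golgi and carried to the lysosome by receptors, and inherited loss of many of them causes a lysosomal storage disease that reaches the brain. TMEM106B is a membrane protein of late endosomes and lysosomes, and its human gene is linked to the risk of frontotemporal dementia.

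The 30 mice were 8 months old and fell into 3 genotypes of 10: Tmem106b +/+ (WT), Tmem106b +/- (HET) and Tmem106b -/- (KO). Each genotype held 5 females and 5 males, 6 mice labelled cohort 1 and 4 labelled cohort 2, and each sample was a separate mouse. RNA came from cerebral hemispheres, so every value is an average over neurons, glia, vessels and other cells. The strain, the part of Tmem106b that was targeted, any other allele the mice shared, and the meaning of the cohort number were not stated in the labels.

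Tmem106b RNA followed the labels in every mouse, and the genotypes did not overlap. On the deposited log2 scale it lay between 9.06 and 9.27 in WT, 8.54 and 8.62 in HET, and 7.43 and 7.67 in KO. Tmem106b RNA was thus lower but still present in KO, above the median level of all genes kept (5.32). All 8 neuronal markers checked were abundant, with means from 9.03 (Rbfox3) to 12.06 (Snap25). Library medians were close, at 2.82 to 2.91, but the lower quartile of the libraries ran from -0.41 to -0.07 in females and from -1.20 to -0.29 in males. By genotype it ran from -1.08 to -0.21 in WT, -1.20 to -0.14 in HET and -1.0 to -0.07 in KO. Read depth is unknown because the table holds normalized values only.

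The hydrolases covered a wide range of levels but most varied little from mouse to mouse, and Acp5 varied most. Levels are means over the 30 mice in deposited log2 RPKM, reads scaled to gene length and library size and then normalized by the authors. The median of the 32 means was 7.11, against 5.32 over all genes kept. Highest was Ids, the sulfatase that starts the breakdown of dermatan and heparan sulfate, with lowest, median and highest values of 10.57, 10.65 and 10.78 in WT, 10.54, 10.63 and 10.73 in HET, and 10.49, 10.63 and 10.73 in KO. Next came Gaa, the acid glucosidase that digests glycogen, with 9.41, 9.55 and 9.63 in WT, 9.45, 9.57 and 9.65 in HET, and 9.40, 9.57 and 9.67 in KO. Lgmn, the asparaginyl endopeptidase legumain, had 9.06, 9.13 and 9.18 in WT, 9.07, 9.13 and 9.23 in HET, and 8.97, 9.11 and 9.13 in KO. In all 3 abundant genes the ranges of the genotypes overlapped, and for Lgmn 2 KO brains lay below every WT brain and 3 HET brains above every WT brain.

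At the low end, Sgsh, the sulfamidase of heparan sulfate, had lowest, median and highest values of 4.49, 4.77 and 4.88 in WT, 4.55, 4.73 and 4.89 in HET, and 4.63, 4.71 and 4.81 in KO. Acp5 lay far below it, at a mean of 1.40 against 4.72 for Sgsh. The spread between mice after removing genotype, sex, cohort and RNA integrity (RIN) had a median SD of 0.0668 log2 over the 32 genes, against 0.135 over all genes kept, and 30 of the 32 lay under that median. Acp5 had the widest spread of the 32, 0.488, and Galns, a sulfatase of keratan sulfate and chondroitin 6-sulfate, came next at 0.162.

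**Figure D1:**
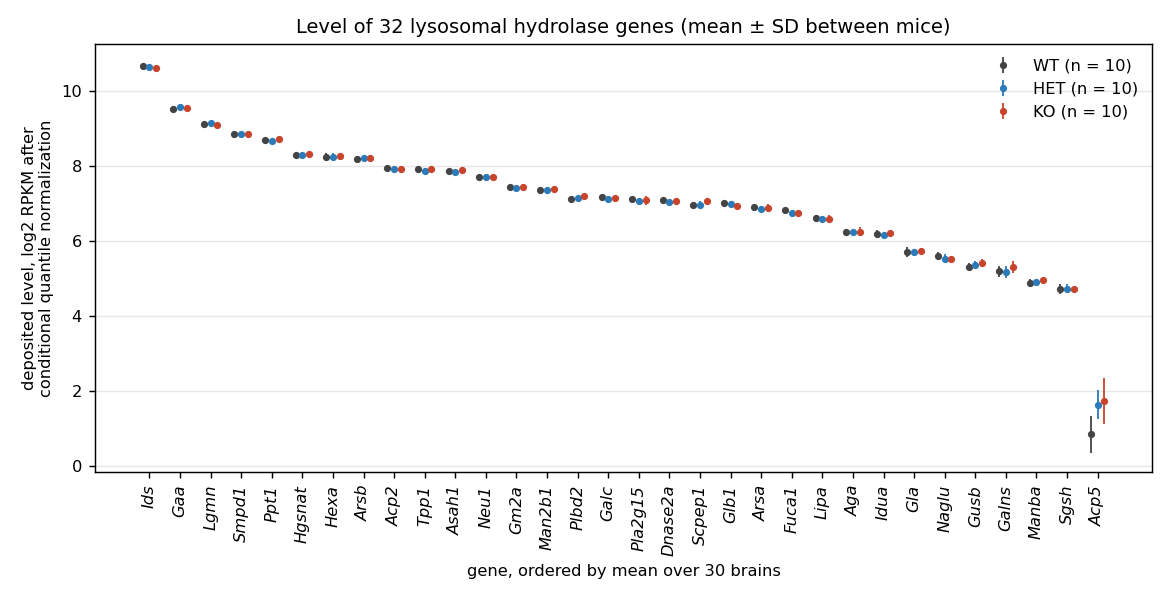
Deposited level (log2 RPKM) of each of the 32 hydrolase genes, ordered by mean over 30 brains, with points for the mean and bars for the SD between the 10 mice of WT (grey), HET (blue) and KO (red). The genotypes lie on top of each other for nearly all genes, and Acp5, at the far right, is the lowest and the most variable.

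KO brains differed from WT brains in 1 of the 32 hydrolases: Acp5 was higher, and the other 31 did not pass the test. A gene was called when its adjusted p was under 0.05 in a linear model over all 30 mice with genotype, sex, cohort and RIN (limma, Benjamini-Hochberg over 23695 genes). Over all genes 1.00% were called, 0.279% higher and 0.722% lower, so 1 of 32 is near the background. At an unadjusted p under 0.05, 7 hydrolases stood out, 5 higher and 2 lower, against 12% of all genes. KO means were above WT for 18 and below for 14, against 53.3% of all genes above. The median log2 difference was 0.01, as it was over all genes (0.01).

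The 31 other differences were small and fairly tightly bounded. They ran from -5.44% (Glb1) to 8.78% (Galns), and their 95% intervals from -11.5% to 20.2%. For 30 of the 31 the interval stayed within 20% of WT in either direction, and for 26 within 10%. In bulk tissue, fewer cells of a type and less RNA per cell cannot be told apart, so a small shift in either would look the same in these values.

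**Figure D2:**
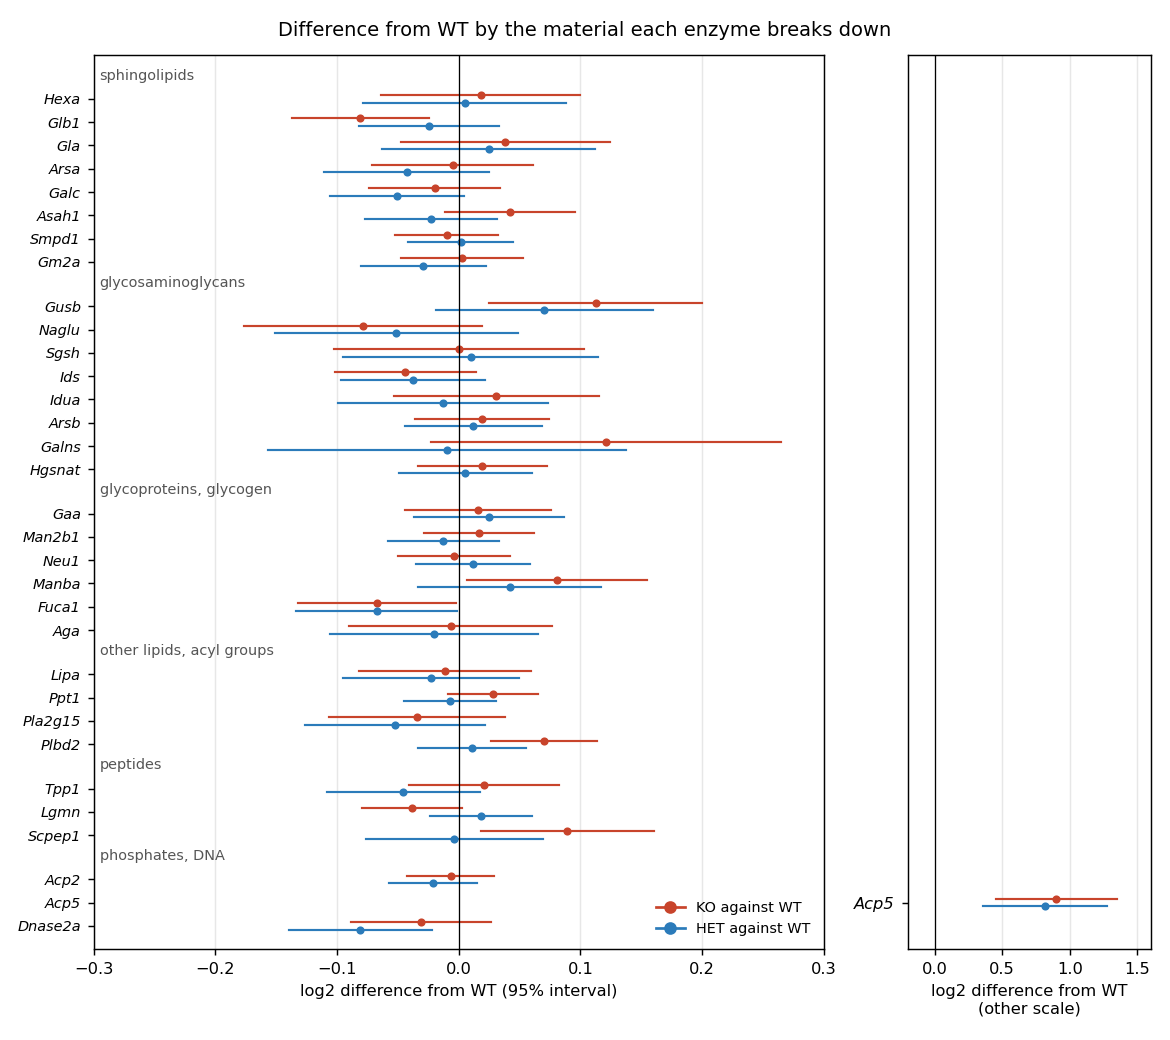
Log2 difference from WT with its 95% interval for each hydrolase, grouped by the material the enzyme breaks down, for KO (red) and HET (blue), with Acp5 on a wider scale at the right. Apart from Acp5 all estimates lie between -0.08 and 0.12, and most intervals cross 0.

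Acp5, which encodes tartrate-resistant acid phosphatase, an enzyme best known from osteoclasts and also made by macrophages, lies on chromosome 9 (22126731 to 22135746, mm10) and overlaps no other gene of the table. Its lowest, median and highest levels were 0.08, 0.87 and 1.69 in WT, 1.1, 1.52 and 2.24 in HET, and 0.95, 1.52 and 2.75 in KO. All 10 KO and all 10 HET brains lay above the WT mean, and 4 of each lay above every WT brain, but the ranges overlapped. Means were 0.84 ± 0.49 in WT, 1.63 ± 0.39 in HET and 1.74 ± 0.61 in KO (SD, n = 10). In KO against WT Acp5 rose by 0.90 ± 0.22 (log2 difference ± SE, as in all that follow), a fold of 1.87 with a 95% interval of 0.45 to 1.35 log2 (adjusted p = 0.0373).

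**Figure D3:**
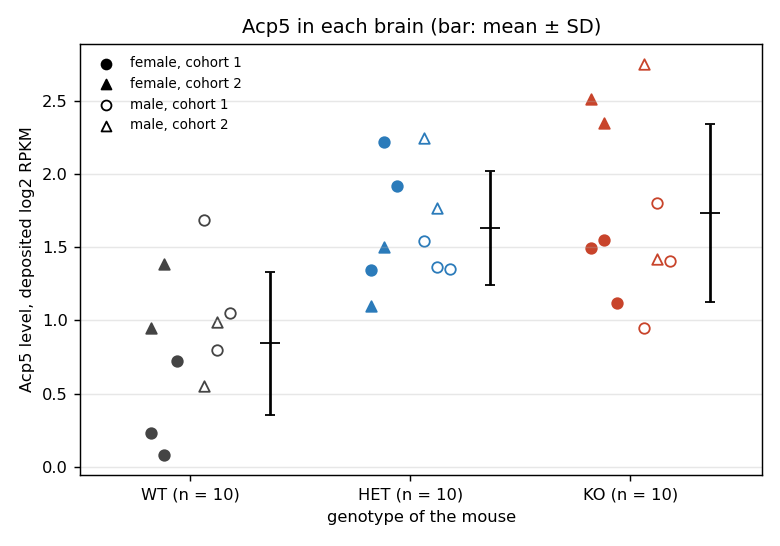
Acp5 level (deposited log2 RPKM) in each brain by genotype, with filled symbols for females, open symbols for males, circles for cohort 1 and triangles for cohort 2, and a bar for the mean and SD of the 10 mice. Every HET and KO brain lies above the WT mean, and the 3 highest KO brains are of cohort 2.

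The call for Acp5 was close to its threshold. The KO difference was 0.62 in cohort 1 (adjusted p = 0.273) and 1.32 in cohort 2 (adjusted p = 0.771), each tested alone by limma. It was 1.15 in females (adjusted p = 0.335) and 0.70 in males (adjusted p = 0.407), also each tested alone. The change of the KO effect between cohorts, 0.69 ± 0.43, did not pass (adjusted p = 0.690). With genotype as the only term the adjusted p was 0.0594, and with only WT and KO in the fit 0.0979. Leaving out 1 mouse kept the difference between 0.79 and 1.01. The call was lost without any of WT replicates 3, 4, 5, 6, 7 and 10 or KO replicates 1, 3, 4, 5, 6, 9 and 10, where the adjusted p ran from 0.052 to 0.11, the highest without KO replicate 4.

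Markers of the cells that make this phosphatase were looked up after the Acp5 value was known. Of 6 osteoclast genes, Ocstamp, Dcstamp and Atp6v0d2 had means below 0, and Ctsk (-0.16), Mmp9 (-0.21) and Calcr (-0.01) were not called in KO against WT. The summed level of the osteoclast list was 5.09 to 5.79 in WT, 5.29 to 5.58 in HET and 5.06 to 5.52 in KO. For 6 macrophage genes of the brain's borders it was 5.17 to 5.58, 4.92 to 5.70 and 5.20 to 5.80 in the same order, with 0 called, 4 above and 2 below 0 and a median of 0.04, from Mrc1 at -0.12 to Pf4 at 0.51 (adjusted p = 0.206). For 6 genes of activated microglia it was 7.72 to 8.26, 7.76 to 8.23 and 7.92 to 8.37, with 0 called, 5 above and 1 below 0 and a median of 0.29, from Lpl at -0.03 to Clec7a at 0.58 (adjusted p = 0.138). Over all genes 1.00% were called and 53.3% lay above 0. At an unadjusted p under 0.05 there were 2 genes of activated microglia and 1 of border macrophages, all higher in KO. Of the 3 osteoclast genes tested there were 0, against 12% of all genes. The summed ranges overlapped between genotypes, and the part of macrophages or microglia in the Acp5 difference was not tested.

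The promoter window of Acp5, the 250 bases before to 50 after its annotated start, is shown because Acp5 was the hydrolase called between KO and WT. It comes from RefSeq on GRCm38.p6, the build named mm10, at chr9:22135697-22135996 on the minus strand, 5′ to 3′.
Acp5: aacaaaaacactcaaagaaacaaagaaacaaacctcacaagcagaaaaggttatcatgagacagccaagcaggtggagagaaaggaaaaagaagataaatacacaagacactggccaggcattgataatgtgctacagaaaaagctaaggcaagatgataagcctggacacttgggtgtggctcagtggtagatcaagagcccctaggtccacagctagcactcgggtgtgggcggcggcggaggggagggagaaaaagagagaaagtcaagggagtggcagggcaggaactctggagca
Windows were searched for CACGTG, the core of the element through which TFEB and TFE3 act on many lysosomal genes, a motif that reads the same on both strands. The Acp5 window does not hold these letters, nor do the windows of its other 2 annotated starts.

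Of the 32 hydrolases 27 were found in the promoter table, and 7 of them (25.9%) hold CACGTG in at least 1 window: Glb1, Naglu, Gaa, Sgsh, Lgmn, Arsa and Gla. Of all 27025 genes with a window, 8.09% do. Galns, Plbd2, Aga, Asah1 and Hgsnat had no entry. The windows of Glb1 and Gla are shown, with the motif in capitals, as those of the hydrolase with the lowest KO against WT difference and of the hydrolase that holds the motif in 2 places. They are chr9:114400828-114401127 on the plus strand and chrX:134600956-134601255 on the minus strand.
Glb1: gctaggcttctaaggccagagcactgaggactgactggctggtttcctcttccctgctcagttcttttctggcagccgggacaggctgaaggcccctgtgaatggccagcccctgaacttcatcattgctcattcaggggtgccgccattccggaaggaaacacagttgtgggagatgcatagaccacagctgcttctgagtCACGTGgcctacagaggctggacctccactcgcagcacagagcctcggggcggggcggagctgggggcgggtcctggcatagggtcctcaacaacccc
Gla: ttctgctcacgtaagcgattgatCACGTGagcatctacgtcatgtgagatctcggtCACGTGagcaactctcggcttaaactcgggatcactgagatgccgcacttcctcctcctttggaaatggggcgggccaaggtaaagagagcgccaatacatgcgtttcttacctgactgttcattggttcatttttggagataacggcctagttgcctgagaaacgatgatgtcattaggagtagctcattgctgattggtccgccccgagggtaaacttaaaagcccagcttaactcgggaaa
In Glb1 the motif begins 48 bases before the start, within GTCACGTGGC. In Naglu the motif begins 73 bases before the start, within the same 10 letters. In Gla it begins 227 and 194 bases before the start. The median KO against WT difference was -0.01 (range -0.08 to 0.04) over the 7 genes with the motif and 0.01 over the 20 without. A match in a window is a description of its letters, and binding was not measured here.

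Among the other phosphatases and nucleases, 0 of 2 were called in KO against WT, against 1.00% of all genes. In classes as small as this one and those below, 0 cannot be told apart from that share. Acp2, the lysosomal acid phosphatase, was at -0.01 ± 0.02. Dnase2a, which digests DNA in lysosomes and overlaps Mast1 (-0.00), was at -0.03 ± 0.03. Overlap here means that the spans from start to end share bases on either strand, which applies to 12 of the 32 hydrolases. Whether exons share bases was not checked, so how many reads could belong to either gene is unknown.

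Of the 8 enzymes and cofactors of sphingolipid breakdown, 0 were called in KO against WT, against 1.00% of all genes, and their median difference was -0.00. At an unadjusted p under 0.05 there was 1, against 12% of all genes. Glb1 (chromosome 9, 114401076 to 114474376), the beta-galactosidase that cuts GM1 ganglioside, had lowest, median and highest levels of 6.96, 6.99 and 7.08 in WT, 6.85, 7.01 and 7.06 in HET, and 6.84, 6.93 and 6.99 in KO. All 10 KO brains lay below the WT mean and 6 below every WT brain, with ranges that overlapped. The difference was -0.08 ± 0.03 (adjusted p = 0.186), and it was -0.08 in cohort 1 and -0.08 in cohort 2. Glb1 overlaps Tmppe, which stood at 0.02.

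Gm2a, the activator that presents GM2 ganglioside to hexosaminidase A, was at 0.00 ± 0.02 and Hexa, the alpha subunit of that enzyme, at 0.02 ± 0.04. Gla, the alpha-galactosidase of globotriaosylceramide, was at 0.04 ± 0.04, and the acid sphingomyelinase Smpd1 at -0.01 ± 0.02. The remaining 3 act on lipids of myelin or on ceramide. Galc, which breaks down galactosylceramide, was at -0.02 ± 0.03, Arsa, which removes the sulfate of sulfatide, at -0.01 ± 0.03, and the acid ceramidase Asah1 at 0.04 ± 0.03.

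Of 4 genes of the pathway that makes the substrates of Galc and Arsa, all lay below WT in KO. Of these 3 were called lower, against 0.722% of all genes. The list was chosen after earlier results were known. Ugt8a, which makes galactosylceramide, fell by 0.39 ± 0.05, Fa2h by 0.39 ± 0.03 and Gal3st1, which makes sulfatide, by 0.27 ± 0.04, while Cers2 was at -0.10 ± 0.03 and not called. All 10 markers of oligodendrocytes also lay below WT in KO, and 9 of them were called lower, against the same 0.722% of all genes. Their summed level was 13.45 to 13.69 in WT, 13.41 to 13.58 in HET and 13.25 to 13.49 in KO. The 95% interval of the KO difference was -0.07 to 0.03 for Galc and -0.07 to 0.06 for Arsa. The difference between these enzymes and the synthesis genes was not tested.

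Of the 8 enzymes of glycosaminoglycan breakdown, 0 were called, against 1.00% of all genes, with a median of 0.02. At an unadjusted p under 0.05 there was 1, against 12% of all genes. Gusb (chromosome 5, 129989011 to 130003049), the beta-glucuronidase, had lowest, median and highest levels of 5.20, 5.29 and 5.50 in WT, 5.24, 5.38 and 5.52 in HET, and 5.29, 5.40 and 5.57 in KO. In KO 8 of 10 brains lay above the WT mean and 4 above every WT brain. The difference was 0.11 ± 0.04 (adjusted p = 0.254), with 0.11 in each cohort. Galns, which overlaps Gm20388 (0.01), was at 0.12 ± 0.07, the widest interval after Acp5. Naglu, the glucosaminidase of heparan sulfate, was at -0.08 ± 0.05 (-0.02 in cohort 1, -0.16 in cohort 2), and Ids at -0.04 ± 0.03. Sgsh (0.00), the iduronidase Idua (0.03), the arylsulfatase Arsb (0.02) and the heparan acetyltransferase Hgsnat (0.02) lay closer to 0.

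Of the 6 enzymes that act on glycoproteins and glycogen, 0 were called, against 1.00% of all genes, with a median of 0.01. At an unadjusted p under 0.05 there were 2, 1 higher and 1 lower, against 12% of all genes. Manba (chromosome 3, 135485611 to 135571404), the beta-mannosidase, had lowest, median and highest levels of 4.68, 4.91 and 4.99 in WT, 4.75, 4.93 and 5.04 in HET, and 4.83, 4.95 and 5.01 in KO. In KO 9 of 10 brains lay above the WT mean, inside the WT range for all but 3, and the difference was 0.08 ± 0.04 (adjusted p = 0.353). Manba overlaps Gm16100, whose mean was below 0, and Oaz2-ps (-0.03). Fuca1, the alpha-fucosidase, was at -0.07 ± 0.03 in KO against WT (adjusted p = 0.396) and 9 of 10 KO brains lay below the WT mean. Gaa (0.02), the alpha-mannosidase Man2b1 (0.02), the sialidase Neu1 (-0.00) and the aspartylglucosaminidase Aga (-0.01) lay near 0.

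Of the 4 enzymes that act on other lipids or acyl groups, 0 were called, against 1.00% of all genes. At an unadjusted p under 0.05 there was 1, against 12% of all genes. Plbd2 (chromosome 5, 120483282 to 120503625), a phospholipase B-like lysosomal protein, came closest, with lowest, median and highest levels of 7.02, 7.13 and 7.20 in WT, 7.03, 7.13 and 7.23 in HET, and 7.15, 7.19 and 7.23 in KO. All 10 KO brains lay above the WT mean and 3 above every WT brain. The difference was 0.07 ± 0.02 (adjusted p = 0.124). Sds, which overlaps Plbd2, stood at 0.17 (adjusted p = 0.496). The acid lipase Lipa was at -0.01 ± 0.03, the palmitoyl-protein thioesterase Ppt1 at 0.03 ± 0.02 and the lysosomal phospholipase A2 Pla2g15 at -0.03 ± 0.04.

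Of the 3 peptidases, 0 were called, against 1.00% of all genes. At an unadjusted p under 0.05 there was 1, against 12% of all genes. Scpep1 (chromosome 11, 88924020 to 88955465), a serine carboxypeptidase, had lowest, median and highest levels of 6.88, 6.97 and 7.06 in WT, 6.69, 6.99 and 7.06 in HET, and 6.98, 7.02 and 7.21 in KO. All 10 KO brains lay above the WT mean and 4 above every WT brain. The difference was 0.09 ± 0.03 (adjusted p = 0.265), with 0.06 in cohort 1 and 0.14 in cohort 2. Scpep1os, which overlaps it, stood at 0.20 (adjusted p = 0.202). Tpp1, the tripeptidyl peptidase, was at 0.02 ± 0.03 and Lgmn at -0.04 ± 0.02.

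Other genes of the pathway were taken from 2 lists. Of 24 further lysosomal hydrolases, 0 were called in KO against WT by limma. Against 12% of all genes, 1 had an unadjusted p under 0.05, the sulfatase Arsg at -0.13 ± 0.05 (adjusted p = 0.264). The next lowest p value was that of Smpdl3a, an acid sphingomyelinase-like phosphodiesterase, at -0.05 ± 0.03. Of 14 genes that tag, carry, activate or regulate lysosomal enzymes, 0 were called. Against the same 12% of all genes, 2 had an unadjusted p under 0.05. These were Nagpa, which uncovers the mannose 6-phosphate tag, at -0.11 ± 0.04 (adjusted p = 0.266), and the sorting receptor Sort1 at -0.06 ± 0.03 (adjusted p = 0.339). Gnptab, which starts the tag, was at -0.05 ± 0.03, and the regulators Tfeb and Tfe3 at 0.05 ± 0.06 and 0.05 ± 0.03.

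HET brains differed from WT brains in 0 of the 32 hydrolases by limma, against 0.00422% of all genes. At an unadjusted p under 0.05 there were 3, against 6.32% of all genes. Acp5 had the lowest p of the 32, at 0.82 ± 0.22 (adjusted p = 0.648), with 0.86 in cohort 1 and 0.76 in cohort 2. Dnase2a was at -0.08 ± 0.03 (adjusted p = 0.751) and Fuca1 at -0.07 ± 0.03 (adjusted p = 0.785). Of the 32, 13 lay above WT and 19 below, with a median of -0.01, against 51.5% of all genes above WT. Differences other than that of Acp5 ran from -5.44% to 5.0%, and all 31 intervals stayed within 20%. This comparison and that of KO share the 10 WT mice.

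KO brains differed from HET brains in 0 of the 32 by limma, against 0.118% of all genes, and in 5 at an unadjusted p under 0.05, against 8.66%. Those 5 were Lgmn (-0.06 ± 0.02), Plbd2 (0.06 ± 0.02), Scpep1 (0.09 ± 0.04), Asah1 (0.07 ± 0.03) and Tpp1 (0.07 ± 0.03). Acp5 was at 0.08 ± 0.22 between KO and HET, with a 95% interval of -0.37 to 0.53. KO lay above HET for 24 of the 32, with a median of 0.02. That split was not tested, and the share over all genes is not given here.

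More genes were called by the cohort label than by genotype. Between cohort 2 and cohort 1, 2 of the 32 were called, both higher in cohort 2, against 17.5% of all genes (8.09% higher and 9.42% lower), and 12 had an unadjusted p under 0.05, against 30.4%. Gm2a (chromosome 11, 55098115 to 55113029) had lowest, median and highest levels of 7.33, 7.41 and 7.5 in cohort 1 (n = 18) and 7.37, 7.47 and 7.55 in cohort 2 (n = 12), a difference of 0.07 ± 0.02 (adjusted p = 0.0242). Plbd2 had 7.02, 7.12 and 7.23 in cohort 1 and 7.15, 7.18 and 7.23 in cohort 2, a difference of 0.05 ± 0.02 (adjusted p = 0.0391). In both genes the cohorts overlapped.

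Without KO replicate 4 the Gm2a difference was 0.05 (adjusted p = 0.116). The Plbd2 call was lost without any of WT replicates 1, 3, 6, 7, 8 and 10, HET replicates 2, 3, 4 and 6, or KO replicates 3, 5 and 6, where its difference stayed at 0.05 and its adjusted p ran from 0.05 to 0.0773. Both calls were lost with the plate column as a further term (adjusted p = 0.0513 for Gm2a and 0.0697 for Plbd2), where Manba was called instead, and that of Plbd2 was lost with no filter on low values (0.0591). Without KO replicate 10, 5 hydrolases (Gla, Gm2a, Gusb, Manba and Plbd2) were called between cohorts, against 18.8% of all genes in the same fit.

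The other lists of the pathway are read against the same 17.5% of all genes called between cohorts. Of 24 further lysosomal hydrolases, 6 were called, 3 higher and 3 lower in cohort 2. Of 14 genes that tag, carry, activate or regulate lysosomal enzymes, 5 were called, 3 higher and 2 lower. The 3 of lowest p among the hydrolases were Fuca2 (0.10 ± 0.02), Prcp (0.19 ± 0.05) and Pld3 (-0.08 ± 0.02). Among the others they were Scarb2, a lysosomal membrane receptor, at -0.18 ± 0.03, Tfe3 at 0.11 ± 0.03 and Psap, the precursor of the saposins, at -0.07 ± 0.02.

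**Figure D4:**
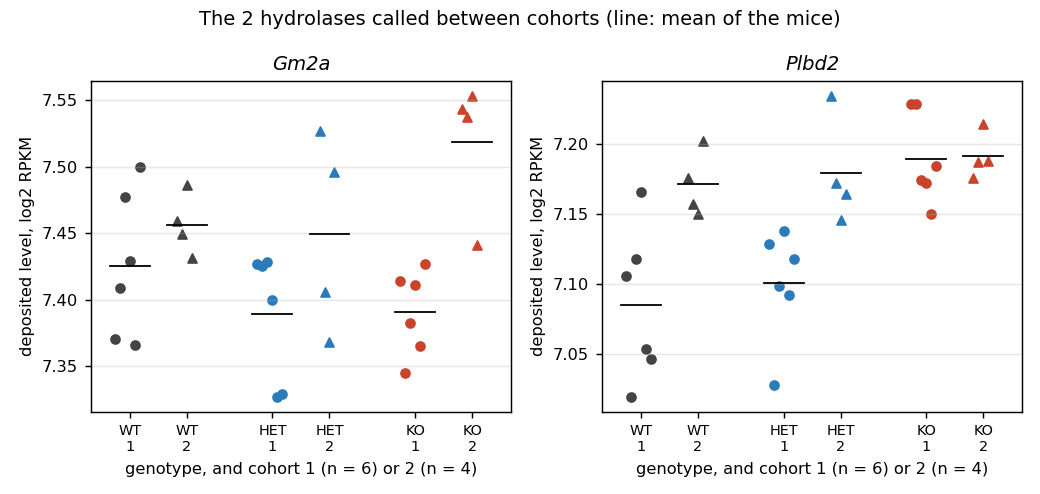
Levels of Gm2a and Plbd2 (deposited log2 RPKM) in each brain by genotype and cohort, with circles for cohort 1 (n = 6 per genotype), triangles for cohort 2 (n = 4) and a line for the mean. Plbd2 in cohort 1 lies higher in KO than in WT and HET, while in cohort 2 the 3 genotypes lie together.

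Plbd2 and Gm2a levels were also split by genotype and cohort. In cohort 1 the Plbd2 means were 7.09 in WT, 7.10 in HET and 7.19 in KO, and in cohort 2 they were 7.17, 7.18 and 7.19. KO against WT was 0.10 in cohort 1 (adjusted p = 0.078) and 0.02 in cohort 2 (adjusted p = 0.999). The change of the KO effect between cohorts was -0.09 ± 0.04 (adjusted p = 0.580), the lowest p of the 32 in that test. For Gm2a it was 0.09 ± 0.05 (adjusted p = 0.620), with KO means of 7.39 in cohort 1 and 7.52 in cohort 2 and WT means of 7.43 and 7.46.

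Over the 32 genes, 0 were called for a KO effect that changed between cohorts, against 0.0338% of all genes, and 1 (Plbd2) had an unadjusted p under 0.05, against 8.53%. The sign of KO against WT was the same in both cohorts for 15 of 32, 9 above and 6 below WT, and in both sexes for 22 of 32, 14 above and 8 below. The share of all genes with the same sign was not computed, and neither count was tested. Above WT in both cohorts were Gusb, Arsb, Galns, Asah1, Ppt1, Manba, Acp5, Plbd2 and Scpep1. Below in both were Glb1, Naglu, Ids, Fuca1, Pla2g15 and Lgmn. In cohort 1, 0 hydrolases and 482 of all genes were called, and 6 hydrolases had an unadjusted p under 0.05, against 15.5% of all genes. In cohort 2, with 4 mice per genotype, 0 hydrolases and 4 of all genes were called, and 3 hydrolases had an unadjusted p under 0.05, against 4.62%.

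**Figure D5:**
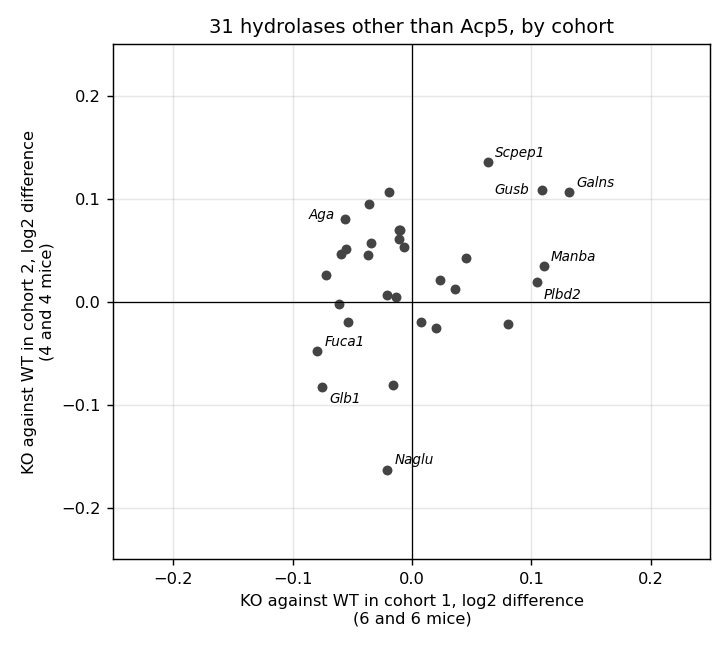
KO against WT log2 difference in cohort 1 (horizontal, 6 and 6 mice) and in cohort 2 (vertical, 4 and 4 mice) for the 31 hydrolases other than Acp5, which stood at 0.62 and 1.32. Points lie on both sides of 0 on either axis, with Gusb, Galns and Scpep1 farthest out among those above 0 in both cohorts.

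Males differed from females in 0 of the 32 by limma, against 0.333% of all genes, and in 5 at an unadjusted p under 0.05, against 12.5%. These were Manba (-0.09 ± 0.03), Lgmn (0.05 ± 0.02), Lipa (-0.08 ± 0.03), Fuca1 (0.06 ± 0.03) and Tpp1 (-0.05 ± 0.02), as male minus female. With no filter on low values, Manba, Lgmn and Lipa were called (adjusted p = 0.0232, 0.0288 and 0.0344). That fit called 9087 of 34871 genes, in place of 79 of 23695. The lower quartile of the libraries moves with sex, and its part in these values was not tested. The X-linked genes Ids (-0.01 ± 0.02) and Gla (0.02 ± 0.03) did not pass. A KO effect that changed with sex was called for 0 of the 32, and for 0.00% of all genes. At an unadjusted p under 0.05 that test had 0 of the 32 and 7.10% of all genes.

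Levels of the hydrolases were also set beside the mean of marker lists for microglia, oligodendrocytes, astrocytes and neurons across the 30 mice, after genotype, sex, cohort and RIN were removed. Of 128 correlations 0 passed (permutation with 100000 resamples, Benjamini-Hochberg over 128). The strongest was Gusb with microglia (r = 0.63, permutation p = 0.0007, adjusted p = 0.0896; rho = 0.64, permutation p = 0.00076, adjusted p = 0.0973). Without the 2 mice farthest from the median of the marker mean it was 0.60 (permutation, adjusted p = 0.122). It was 0.50 within cohort 1 (adjusted p = 0.722) and 0.74 within cohort 2 (adjusted p = 0.668). Gusb with neurons was at -0.04 within cohort 1 and 0.88 within cohort 2 (adjusted p = 0.993 and 0.232). The strongest within a cohort was Glb1 with oligodendrocytes, at 0.94 in cohort 2 (n = 12, permutation, adjusted p = 0.064). That pair was at 0.14 in cohort 1 and 0.29 over the 30 mice (permutation, adjusted p = 0.993 and 0.775). Of 10 microglia markers 0 were called in KO against WT. At an unadjusted p under 0.05 there were 5, 3 higher and 2 lower, against 12% of all genes. The summed level of the 10 markers was 10.22 to 10.51 in WT, 10.23 to 10.37 in HET and 10.28 to 10.54 in KO. The part of microglia in the Gusb values was not tested beyond this.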

How the data were processed

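The authors deposited a table of log2 RPKM per gene after conditional quantile normalization, which adjusts for gene length and GC content. The submitters' processing notes name TopHat2 2.0.12, Bowtie 1.1.0 and mm10. For the counting tool, annotation release, strand setting and any gene filter, nothing was given in the sources used here. Per the labels' protocols, RNA from the hemispheres of all mice was extracted in a single experiment. Depth is unknown, so precision was judged from the spread between mice.

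Genes with a mean above 0 over 30 mice were kept. They were fitted in limma 3.58.1 (R 4.3.3) with genotype, sex, cohort and RIN and an intensity trend, with two-sided tests and Benjamini-Hochberg adjustment over 23695 genes, checked on simulated data. Because values are log2, no pseudocount was added. Values per group are given for hydrolases called in any contrast, the 6 of lowest p in KO against WT, and the 3 highest and 3 lowest levels. Of the other pathway lists, genes called in KO against WT and the 3 of lowest p are named, except for a result that is not reported here; the 3 of lowest p between cohorts were added later. Genes named beyond this, such as those of the osteoclast, macrophage, activated microglia and galactolipid lists, were chosen after seeing values. The members and all lists were chosen with earlier results of these data known. Alternatives changed the covariates, groups, filter, variance prior, scaling and mice in the fit.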

Additional observations from a re-analysis of the deposited data

Results flagged for a closer look

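In each of the 32 hydrolases and 3 genotypes, 96 groups of 10 mice in all, the highest and lowest mice were compared with their nearest neighbours, and 4 groups held a mouse far from the rest. Chance alone gives about 1 in 20 such groups. Hexa in KO replicate 3, a male of cohort 1, was the lowest of its group at 8.05, with the next at 8.19. Tpp1 in HET replicate 4, a female of cohort 1, was the highest at 8.04, with the next at 7.88. Fuca1 in KO replicate 4, a male of cohort 2, was the highest at 6.91, with the next at 6.79. Scpep1 in HET replicate 5, a male of cohort 1, was the lowest at 6.69, with the next at 6.91. All values are deposited log2 RPKM.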

How the results depend on the processing

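The 1 hydrolase called in KO against WT, Acp5, was called in 7 of 12 alternatives. The count was 0 with genotype alone, with only the 2 groups compared, in cohort 1 alone and in cohort 2 alone, where the cause was not tested, and 0 with a mean above 2, which removes Acp5. Leaving out 1 mouse at a time gave 0 to 1. Over all genes the KO against WT count, 237, ran from 138 (without WT replicate 4) to 388 (without KO replicate 10) with 1 mouse left out. It was 114 when HET mice were dropped, 144 when genotype was the sole term, 482 in cohort 1 and 4 in cohort 2. The counts for HET against WT and KO against HET were 0 in every alternative run. The count of 2 between cohorts was 1 with the plate column as a term (Manba, with Gm2a and Plbd2 both lost) and 1 with no filter (Gm2a), and 1 to 5 with 1 mouse left out. The count of 0 between sexes was 3 with no filter. Over all genes the sex count, 79 of 23695, ran from 39 (without KO replicate 4) to 141 (without HET replicate 6). It was 35 with the plate column, 41 with no intensity trend and 9087 of 34871 with no filter. KO against HET, 28, was 44 without KO replicate 7, 12 in cohort 1 and 1 in cohort 2. HET against WT, 1, ran from 1 to 3 with 1 mouse left out. The count for a KO effect that changed with cohort, 8, ran from 0 (without WT replicate 1 or KO replicate 10) to 14 (without HET replicate 4 or KO replicate 8), and was 2 with no intensity trend. The cause was not tested for these. Some KO against WT differences that were not called changed sign. In cohort 1 alone these were Hexa -0.04, Gaa -0.01, Man2b1 -0.01, Idua -0.02, Arsa 0.01, Tpp1 -0.01, Hgsnat -0.01 and Gm2a -0.03. In cohort 2 alone they were Gla -0.02, Neu1 0.05, Sgsh -0.03, Galc 0.05, Smpd1 0.01, Lipa 0.05, Aga 0.08, Acp2 0 and Dnase2a 0.03. Neu1 was 0 with the plate column and Sgsh 0 with libraries at the same median. Ids between sexes was 0.01 with the plate column and 0.02 in cohort 1. With 1 mouse left out, sign changes fell within -0.01 to 0.04 for Hexa, 0 to 0.03 for Gaa, -0.02 to 0 for Neu1, -0.02 to 0.02 for Sgsh, -0.02 to 0.01 for Arsa, -0.02 to 0 for Smpd1, -0.03 to 0.01 for Lipa, -0.02 to 0.02 for Aga, -0.01 to 0.01 for Gm2a and -0.01 to 0 for Ids between sexes. With the lower quartile of each library as a term, chosen after seeing the data, Acp5 was at 0.90 (adjusted p = 0.0287). No paired analysis was possible because the replicate numbers were given in accession order and pair no mice.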
